A study of Mus musculus with 8 samples.

Results

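Claudins and tight junction genes were compared between intestinal crypts from mice with colitis induced by dextran sulfate sodium (DSS) and such crypts with an added treatment labelled CA. From the title of the series, CA is the primary bile acid cholic acid. The members are the 10 genes Cldn2, Cldn3, Cldn4, Cldn7, Cldn8, Cldn15, Cldn23, Ocln, Tjp1 and F11r, found by gene symbol among the 34745 genes of the deposited tables. All 10 were found, and 9 of them passed the filter on low values, a deposited FPKM (count scaled by gene length and library total) of 1 or more in 4 or more libraries. Cldn8 did not pass. DSS is a sulfated sugar polymer that damages intestinal epithelium in models of colitis. Both groups were wild-type C57BL/6 mice on day 5, both had DSS, and each was profiled with 4 RNA sequencing libraries of total RNA. No group without DSS was analysed here. The labels state neither the gut segment, the dose and route of either compound, nor the age of the mice. They also do not state whether CA was given to the mice or to isolated crypts, or whether a library is 1 animal. All p-values below are thus set against differences among libraries of a group, which may be technical.

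Tight junctions are belts of membrane strands near the top of epithelial cells that control what passes between neighbouring cells. Claudins form the strands. Some of them build ion channels between cells, as claudin-2 does for small cations and water and claudin-15 for sodium, whereas claudins such as claudin-3, claudin-4 and claudin-8 are classed as sealing. In the gut, claudin-2 is made mainly by crypt cells and is known to be raised in inflamed mucosa, and claudin-15 is the main channel-forming claudin of the small intestine. Occludin (Ocln) and the adhesion molecule JAM-A (F11r) sit in the same membrane, and ZO-1 (Tjp1) is the scaffold protein that ties the strands to actin.

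Total counts per library lay between 13334012 and 17973196. The libraries held the epithelial genes Epcam, Krt8, Krt18, Krt19, Krt20, Vil1 and Cdh1 at a summed 9843 to 11024 CPM (read counts scaled to a common library total, with TMM) in DSS and 10291 to 10912 in DSS+CA. Of 5 colon genes, Car1 had 0 counts in all 8 libraries. The 5 together summed to 12.1 to 28.0 CPM in DSS and 6.47 to 28.3 CPM in DSS+CA. Among them, Aqp8 had 202 counts in DSS and 17 in DSS+CA, and Slc37a2 was at 7.44 and 11.7 CPM. The ileal genes Fabp6 and Slc10a2 summed to 414 to 1226 and 451 to 2191 CPM. A list of 7 small-intestinal genes, among them Sis and Apoa4, summed to 22604 to 94652 CPM in DSS and 25376 to 106789 CPM in DSS+CA. Among markers of other cells, 6 of 6 T cell genes had a lower mean in DSS+CA (summed 166 to 323 CPM in DSS and 33.1 to 104 in DSS+CA). So had 4 of 4 goblet cell genes (3572 to 6675 and 1883 to 2943) and 4 of 4 Paneth cell genes, whose sums overlapped (3854 to 25085 and 3341 to 11841). Of the T cell genes, 4 passed the filter, as did all goblet and Paneth cell genes. Of these tested genes, 0 had an adjusted p below 0.05 in edgeR, and the lowest was 0.0502, for Cd8a and Lck. Of 4 crypt stem cell genes (summed 356 to 1389 and 187 to 562 CPM), 3 had a lower mean in DSS+CA, among them Lgr5 (7.35 ± 3.46 and 2.53 ± 1.21 CPM) and Olfm4 (740 ± 444 and 401 ± 164 CPM). The other, Smoc2, was at 44.9 and 49.3 CPM. Lgr5 did not pass the filter, and the adjusted p in edgeR was 0.764 for Olfm4, 0.968 for Ascl2 and 0.998 for Smoc2. Mitochondrial genes took 16.2% to 27.7% of counts in DSS and 9.72% to 20.5% in DSS+CA, where 3 of 4 libraries lay below every DSS library. Fibroblast genes summed to at most 5.73 CPM and endothelial genes to at most 3.798 CPM in any library, with the endothelial claudin Cldn5 at 0 counts throughout. The mean length of a counted gene (a harmonic mean weighted by counts), which falls when short transcripts are abundant, was 1423 bases in DSS 2, 1448 in DSS 3 and 1445 in DSS+CA 3, against 1719 to 2412 bases in the other 5 libraries. Those 3 libraries also had the highest sums of the small-intestinal genes. They were at 77247, 94652 and 106789 CPM, against 22604 to 48135 CPM in the other 5.

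Cldn2 was the member that separated the groups, and the bases before its start are shown beside those of Cldn3 and Cldn7, abundant claudins whose levels overlapped between the groups. The sequences are RefSeq's, on GRCm38.p6, written 5′ to 3′ on the strand of the gene, and end at the base before the start that RefSeq gives. For Cldn2 that start lies upstream of the gene start in the deposited tables, given below, and the distances of motifs are from the RefSeq start. The window of Cldn2 is chrX:139800558-139800807 (plus strand), that of Cldn3 chr5:134985964-134986213 (plus strand) and that of Cldn7 chr11:69964529-69964778 (plus strand). Capitals mark matches to any of the motifs searched on both strands.
Cldn2: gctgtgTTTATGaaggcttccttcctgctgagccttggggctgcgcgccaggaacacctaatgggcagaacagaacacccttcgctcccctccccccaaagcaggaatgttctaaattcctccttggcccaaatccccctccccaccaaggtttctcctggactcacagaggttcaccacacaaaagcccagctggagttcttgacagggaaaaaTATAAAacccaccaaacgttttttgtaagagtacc
Cldn3: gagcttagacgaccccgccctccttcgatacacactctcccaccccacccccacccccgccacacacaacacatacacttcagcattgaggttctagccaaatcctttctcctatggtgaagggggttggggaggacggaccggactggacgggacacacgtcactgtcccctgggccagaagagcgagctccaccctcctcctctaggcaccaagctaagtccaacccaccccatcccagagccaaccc
Cldn7: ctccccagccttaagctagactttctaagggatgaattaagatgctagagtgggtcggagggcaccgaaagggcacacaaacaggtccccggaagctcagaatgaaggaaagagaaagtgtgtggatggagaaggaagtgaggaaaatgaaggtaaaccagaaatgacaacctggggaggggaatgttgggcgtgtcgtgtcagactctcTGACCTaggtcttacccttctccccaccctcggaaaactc

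The capitals in Cldn2 are TTTATG, a site of the CDX intestinal transcription factors, whose first base lies 244 bases before the start, and TATAAA, the TATA box, whose first base lies 35 bases before it. A TATAAA on either strand was held by 12.3% of the 32536 different RefSeq windows of 250 bases and a TTTATG by 10.8%. Among the 8 members with a window, Cldn2 was the only one with either. The capitals in Cldn7 are TGACCT, the reverse complement of the nuclear receptor motif AGGTCA, which 14.0% of all windows held and which 3 members (Cldn4, Cldn7 and Ocln) had. Cldn7 and Ocln each had a further window, not shown, and that of Cldn7 held AGGTCA as well. A member was counted when any of its windows matched, whereas the percentages are of single windows. The HNF1 motif GTTAAT matched in 0 members and in 6.47% of all windows, and the GATA motif AGATAA in 0 members and 9.97%. The longer HNF4 motif CAAAGTCCA and the inverted repeat bound by the bile acid receptor FXR also matched in 0 members, and in 0.387% and 0.00615% of all windows. These are matches of letters, and no binding was measured. Windows for Cldn8 and Cldn23 were not used here.

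The members differ in gene structure. On GRCm38, Cldn3 (chr5:134986214-134987472) and Cldn4 (chr5:134945119-134946934) are neighbours on opposite strands, 39279 bases apart, and Cldn15 (chr5:136966616-136975858) lies farther along the same chromosome. The longest coding transcript of Cldn3, Cldn4, Cldn8 (chr16:88560828-88563183) and Cldn23 (chr8:35824709-35826559) is a single exon in GENCODE M21. Cldn2 (chrX:139800828-139811386) has 2 exons, Cldn7 (chr11:69964779-69967885) 4, Cldn15 6, Ocln (chr13:100496507-100552718) 9, F11r (chr1:171437535-171464603) 10 and Tjp1 (chr7:65296165-65527781) 28. All are protein coding, and counts were summed per gene. The longest identical stretch between transcripts of different members was 35 bases, between Cldn3 and Cldn4, and at most 18 bases for every other pair. Cldn3 shares 40 exonic bases with the antisense gene Wbscr25, which had 25 counts over the 8 libraries.

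Per length, Cldn3, Cldn7 and Cldn15 were the most abundant members in every library. In DSS the mean FPKM was 188 ± 76.2 for Cldn3, 137 ± 48.2 for Cldn7, 109 ± 29.8 for Cldn15, 36.9 ± 17.1 for F11r, 21.8 ± 6.53 for Cldn4 and 21.2 ± 7.58 for Cldn2 (SD, n = 4). Below them were Ocln at 14.3 ± 4.99, Cldn23 at 8.97 ± 3.11, Tjp1 at 6.11 ± 4.65 and Cldn8 at 0.777 ± 0.552. Cldn4 and Cldn2 could not be ordered in DSS, since Cldn4 was above Cldn2 in 2 of 4 libraries. In DSS+CA, Cldn2 came after the 3 leading claudins at 51.4 ± 18.3 FPKM and lay above F11r (35.8 ± 15.2) in 4 of 4 libraries, and the order of the other members was the same. The order of the 3 leading claudins depends on the gene length, as does that of Cldn4 and Ocln. The length behind the deposited FPKM was 1.23 to 1.79 times the exonic length of GENCODE M21 for 6 members. It was 1.79 times for Ocln and 1.0 times for Cldn4. With the M21 length Cldn7 led in DSS, at 33.6% ± 2.16 of the claudin total per length, ahead of Cldn15 at 29.3% ± 2.11 and Cldn3 at 27.3% ± 4.05.

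Cldn2, the cation and water channel, had a mean 2.10 times as high in DSS+CA. Its level was 105, 90.3, 73.5 and 87.9 CPM in DSS 1 to 4 and 202, 187, 138 and 222 CPM in DSS+CA 1 to 4. Every DSS+CA library lay above every DSS library, and the lowest of each group was replicate 3. The means were 89.3 ± 13.1 and 187 ± 35.8 CPM (SD, n = 4), a fitted 2.10-fold difference with a 95% interval of 1.38 to 3.19 that is not adjusted for the number of genes (log2 fold change 1.07, SE 0.275). The difference did not pass the threshold over all genes (edgeR, adjusted p = 0.171). Of the 9 tested members, 0 passed (9 genes lower and 4 higher of 9913 did, 0.131%), and 1 had an unadjusted p below 0.05, against 7.82% of all tested genes. Groups that did not overlap were found in 6.05% of all tested genes (3.24% higher and 2.81% lower in DSS+CA) and, among the 9 tested members, in Cldn2 alone. In bulk crypt RNA, more cells of a type and more RNA per cell cannot be told apart. The 7 small-intestinal genes summed to a mean of 60660 CPM in DSS and 52296 CPM in DSS+CA, and the 4 crypt stem cell genes to 795 and 455 CPM. How much of each library came from crypt cells was not measured.

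Whether Cldn2 passed depended on the fit, while its log2 fold change lay between 0.92 and 1.21 in all 17 alternatives. DESeq2 gave a log2 fold change of 1.03 (adjusted p = 0.0198), with 2.22% of genes called. The fit with the mean counted gene length of each library as a covariate gave 0.92 (edgeR, adjusted p = 0.0292), with 6.23% of genes called. Without DSS 2, DSS 3 and DSS+CA 3, the libraries of shortest counted genes, it was 1.04 (edgeR, adjusted p = 0.0281), with 6.61% of genes called. Scaling the libraries to the 7 epithelial genes left it at 1.05 (edgeR, adjusted p = 0.194). Over all alternatives, the adjusted p ranged from 0.0198 to 0.598. T cell, goblet cell and Paneth cell genes, 3 of 4 stem cell genes and the mitochondrial share had lower means in the DSS+CA libraries, as given above. Their part in the Cldn2 difference was not tested.

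**Figure D1:**
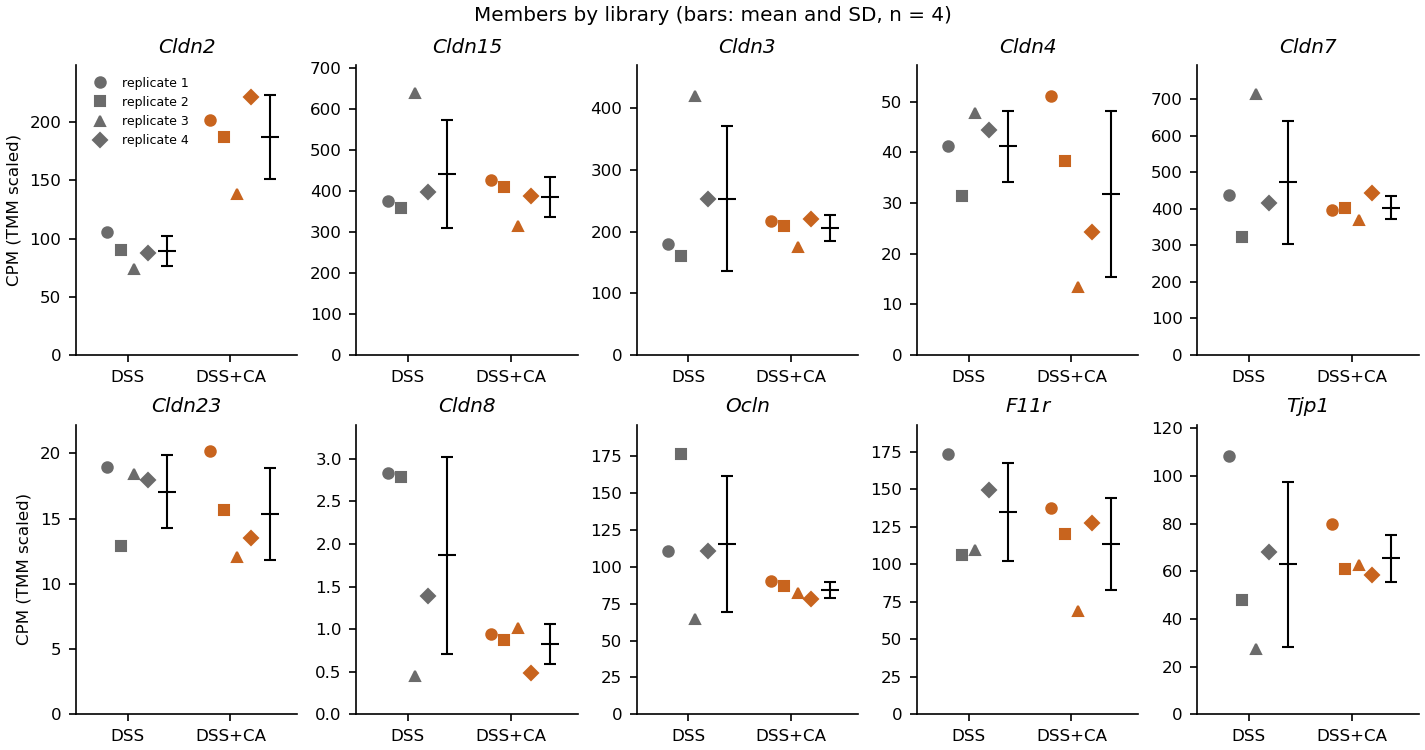
Level of each member in every library (vertical axis, TMM-scaled CPM from 0; horizontal axis, group; marker shape, replicate; bars, mean and SD of 4 libraries). Cldn2 in DSS+CA (138 to 222 CPM) lies wholly above DSS (73.5 to 105 CPM), the other 9 members overlap, and DSS 3 is the highest library for Cldn3, Cldn7 and Cldn15 and the lowest for Ocln, Tjp1 and Cldn8.

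Cldn15, the sodium channel claudin, did not share this difference. It was at 375, 358, 637 and 396 CPM in DSS and 426, 410, 314 and 387 CPM in DSS+CA. The groups overlapped, with DSS 3 far above the other DSS libraries and DSS+CA 3 the lowest of all. The log2 fold change was -0.20, with an interval of -0.87 to 0.47 (edgeR, adjusted p = 0.990).

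The sealing claudin Cldn3 was at 180, 161, 421 and 253 CPM in DSS and 217, 210, 175 and 220 CPM in DSS+CA. The DSS+CA libraries lay within the range of the DSS libraries, which DSS 3 stretched upward. Its log2 fold change was -0.31, with an interval of -1.06 to 0.45 (edgeR, adjusted p = 0.965), and it was 0.052 without DSS 3.

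Cldn7, a claudin found along the sides of gut epithelial cells as well as in their junctions, also had its highest level in DSS 3. It was at 437, 322, 714 and 416 CPM in DSS and 397, 401, 369 and 444 CPM in DSS+CA, so that DSS 3 was again the highest and DSS 2 the lowest library. Its log2 fold change was -0.23, with an interval of -0.93 to 0.47 (edgeR, adjusted p = 0.979), and 0.040 without DSS 3.

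Cldn4, also classed as sealing, was at 41.3, 31.4, 47.7 and 44.4 CPM in DSS and 51.1, 38.3, 13.3 and 24.3 CPM in DSS+CA. Here the wide group was DSS+CA, which held both the highest and the lowest libraries. The log2 fold change was -0.37, with an interval of -1.22 to 0.47 (edgeR, adjusted p = 0.955), -0.12 without DSS+CA 3 and -0.70 without DSS+CA 1. With library gene length as a covariate it was -0.81, with an interval of -1.60 to -0.03 (edgeR, adjusted p = 0.194).

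Cldn23, a claudin of differentiated gut epithelium, was at 19.0, 12.9, 18.4 and 17.9 CPM in DSS and 20.2, 15.6, 12.03 and 13.5 CPM in DSS+CA. The groups overlapped, and DSS 2 and DSS+CA 3 were the lowest of their groups, as they were for Cldn4. Its log2 fold change was -0.15, with an interval of -0.78 to 0.47 (edgeR, adjusted p = 0.996), and -0.32 with library gene length as a covariate (edgeR, adjusted p = 0.434).

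Cldn8, a sealing claudin known mainly from the distal colon, was scarce, with 47, 37, 6 and 25 counts in DSS and 18, 14, 10 and 9 counts in DSS+CA. The counts summed to 115 and 51, and on the CPM scale DSS 3 (0.451) lay below every DSS+CA library (0.485 to 1.01). In a fit with no filter its log2 fold change was -1.10, with an interval of -2.36 to 0.16 (edgeR, adjusted p = 0.612).

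Ocln, the strand protein occludin, was at 111, 177, 64.5 and 111 CPM in DSS and 90.6, 86.8, 82.1 and 78.0 CPM in DSS+CA. In DSS, 3 libraries lay above all DSS+CA libraries and DSS 3 lay below them. The log2 fold change was -0.46, with an interval of -1.16 to 0.24 (edgeR, adjusted p = 0.875). It was -0.66 without DSS 3, with an interval of -1.22 to -0.09 (edgeR, adjusted p = 0.300). Without DSS 2 it was -0.18, with an interval of -0.81 to 0.45 (edgeR, adjusted p = 0.968). Without DSS 2, DSS 3 and DSS+CA 3 it was -0.41, with an interval of -0.80 to -0.03 (edgeR, adjusted p = 0.157).

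F11r, which encodes JAM-A, was at 174, 106, 110 and 150 CPM in DSS and 138, 120, 68.5 and 127 CPM in DSS+CA. The 3 libraries of shortest counted genes were its 3 lowest, at 68.5 to 110 CPM, against 120 to 174 CPM in the other 5. The log2 fold change between the groups was -0.25, with an interval of -0.93 to 0.43 (edgeR, adjusted p = 0.971), and it was -0.07 without DSS+CA 3. With library gene length as a covariate it was -0.53, with an interval of -0.93 to -0.14 (edgeR, adjusted p = 0.104).

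Tjp1, the longest transcript among the members, was at 109, 47.9, 27.1 and 68.0 CPM in DSS and 79.9, 60.7, 62.7 and 58.5 CPM in DSS+CA. The DSS libraries spread on both sides of the DSS+CA libraries, with DSS 1 the highest and DSS 3 the lowest of all. The log2 fold change was 0.06, with an interval of -0.79 to 0.91 (edgeR, adjusted p = 0.999), and it was -0.45 without the 3 libraries of shortest counted genes.

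**Figure D2:**
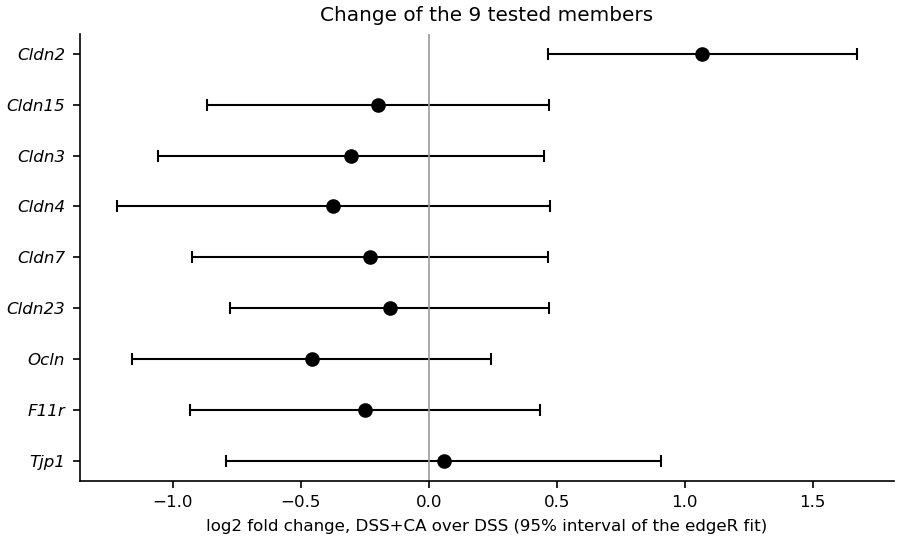
Log2 fold change of DSS+CA over DSS for the 9 tested members (horizontal axis; points, edgeR estimate; bars, 95% interval not adjusted for the number of genes). The interval of Cldn2 (0.47 to 1.67) lies above 0, and those of the other 8 members span 0.

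Of the 9 tested members, 7 had a log2 fold change below 0 and 2 above, with a median of -0.23, against a median of 0.02 over all tested genes, of which 48.1% were below 0. The intervals of the 8 members other than Cldn2 allow for a change of up to about the size seen in Cldn2 for Cldn3, Cldn4 and Ocln in the direction of a decrease, with lower bounds of -1.06, -1.22 and -1.16. In simulated data of this size, edgeR recovered 11.9% of genes changed 2-fold, 76.1% of genes changed 4-fold and 97.0% of genes changed 8-fold. The simulated counts were drawn gene by gene, without differences among libraries that many genes share, so these rates need not hold for the real libraries.

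Cldn2 made up a larger part of the claudin transcripts in DSS+CA. Over the 7 claudins that passed the filter, Cldn2 held 5.91%, 6.00%, 2.32% and 4.39% of the summed claudin FPKM in DSS 1 to 4 and 9.96%, 9.64%, 8.79% and 11.1% in DSS+CA 1 to 4. The ranges did not overlap, and the means were 4.65% ± 1.72 and 9.86% ± 0.947 (SD, n = 4). With the M21 lengths they were 4.10% and 8.72%. The share of Cldn3 was 37.9% ± 4.96 and 35.4% ± 0.644, that of Cldn7 27.9% ± 2.05 and 26.9% ± 2.16, and that of Cldn15 22.7% ± 1.94 and 21.8% ± 0.908. Cldn4 held 4.57% ± 0.818 and 3.69% ± 1.69. These shares describe the libraries and were not tested. The summed claudin FPKM itself overlapped, at 488 ± 157 and 513 ± 157, and was lowest in DSS 2 (272) and DSS+CA 3 (285).

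**Figure D3:**
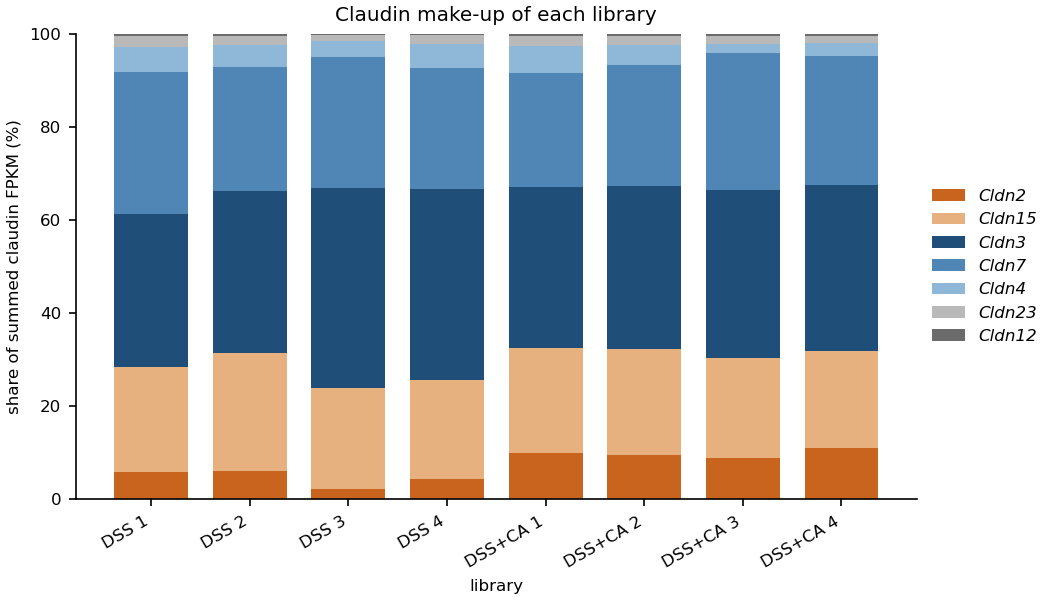
Share of each claudin in the summed FPKM of the 7 claudins that passed the filter (vertical axis, percent; 1 bar per library). The Cldn2 segment is 2.32% to 6.00% in DSS and 8.79% to 11.1% in DSS+CA, while Cldn3, Cldn7 and Cldn15 together fill most of every bar.

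The ratio of Cldn2 to another member within a library does not depend on how libraries are scaled. The ratio of Cldn2 to Cldn7 counts was 0.241, 0.281, 0.103 and 0.211 in DSS and 0.509, 0.466, 0.374 and 0.500 in DSS+CA. That of Cldn2 to Cldn15, the other channel-forming claudin, was 0.281, 0.253, 0.115 and 0.222 in DSS and 0.474, 0.457, 0.439 and 0.573 in DSS+CA. Within each ratio, all DSS+CA libraries lay above all DSS libraries. The same held for Cldn3, Cldn4, Cldn23, Ocln and F11r as the denominator, in all for 7 of 8 members, whereas the ratio to Tjp1 overlapped (0.971 to 2.71 and 2.20 to 3.79). With every tested gene that had a count in all libraries as the denominator, the ratios did not overlap and were higher in DSS+CA for 33.9%.

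**Figure D4:**
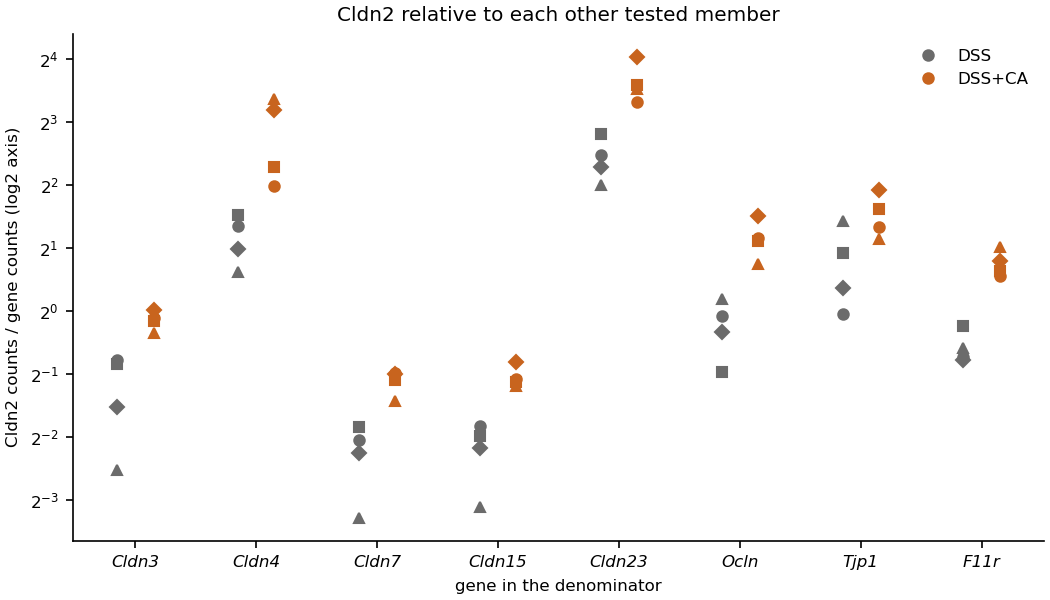
Counts of Cldn2 divided by counts of each other tested member, by library (vertical axis, ratio on a log2 axis; horizontal axis, the denominator; grey, DSS; orange, DSS+CA; marker shapes, circle, square, triangle and diamond for replicates 1 to 4). The groups separate for 7 denominators, such as Cldn15 (at most 0.281 in DSS and at least 0.439 in DSS+CA), and overlap for Tjp1.

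DSS 3 was at one end of the range for several members. Its levels of Cldn3, Cldn7 and Cldn15 (421, 714 and 637 CPM) were the highest of the 8 libraries, and its levels of Cldn2, Ocln and Tjp1 (73.5, 64.5 and 27.1 CPM) were the lowest. DSS 2 had the lowest Cldn7 and Cldn3 (322 and 161 CPM) and the highest Ocln (177 CPM), and DSS 1 the highest F11r and Tjp1 (174 and 109 CPM). The mean counted gene length was 1448 bases in DSS 3, 1423 in DSS 2 and 2234 in DSS 1, and its part in this spread was not tested. The coefficient of variation was larger in DSS than in DSS+CA for 5 of 9 tested members and for 63.2% of all tested genes.

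Genes with the profile most like that of Cldn2 over the 8 libraries were Mak16, a ribosome biogenesis factor (Pearson r = 0.99 on log2 CPM), and Ctps, a CTP synthase (r = 0.98). For Cldn15 they were B3gat3, an enzyme of glycosaminoglycan synthesis, and Acaa1a, a peroxisomal thiolase (both r = 0.98). These are the highest correlations over all other tested genes, given as a description. They were taken over both groups together, so a group difference that 2 genes share enters their r. In DSS and DSS+CA, Mak16 was at a mean of 19.2 and 32.9 CPM and Ctps at 12.2 and 21.2 CPM. For both, the groups did not overlap and DSS+CA was higher, as for 3.24% of all tested genes.

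Of the 28 other claudin genes in the tables, 22 had 0 counts in all 8 libraries, which leaves room for up to 3 counts among 122880285, and only Cldn12 passed the filter. Cldn12, a claudin linked to calcium passage, was at 37.1, 29.0, 27.5 and 23.9 CPM in DSS and 36.4, 40.3, 33.1 and 40.4 CPM in DSS+CA. DSS 1 lay among the DSS+CA libraries and the other 3 DSS libraries below them (log2 fold change 0.35, SE 0.257, edgeR, adjusted p = 0.893). The stomach-type claudin Cldn18 had 51 and 40 counts in the groups and Cldn1 had 7 and 1.

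Other junction genes were read by list, and 0 genes of the 5 lists below passed the threshold in edgeR or in DESeq2. An unadjusted p below 0.05 was reached in edgeR by 2 desmosome genes and 1 contractility gene, and by 7.82% of all tested genes. Of 14 membrane partners, 6 were tested, 0 passed, and 5 were below 0 with a median of -0.06. Among them the tricellular junction gene Lsr was at 0.20 (SE 0.348), and Igsf5, Gpa33 and Cxadr, adhesion proteins of the immunoglobulin superfamily, were at -0.19, -0.17 and -0.04. Of 30 plaque and polarity genes, 23 were tested and 0 passed, with 15 below 0 and a median of -0.04. Ybx3, a junction-associated nucleic acid binding protein (53.6 ± 8.96 and 88.0 ± 34.1 CPM, log2 fold change 0.72), and Magi3, a scaffold (67.2 ± 26.9 and 42.3 ± 4.41 CPM, -0.67), had the smallest p-values of this list, and both overlapped between the groups. The groups did not overlap for 1 gene of the list, Prkci, an atypical protein kinase C of the polarity complex, with means of 39.8 and 52.8 CPM (log2 fold change 0.41, SE 0.262, edgeR, adjusted p = 0.858), where 3.24% of all tested genes did not overlap and were higher. Prkci, like Perp below, was named after its values were seen. The ZO-3 gene Tjp3 was at 142 ± 38.8 and 115 ± 30.6 CPM, and the small GTPase gene Rab13 at 6.18 ± 3.23 and 3.07 ± 1.93 CPM.

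Of 10 adherens junction genes, all were tested, 0 passed and 7 were above 0, with a median of 0.16. E-cadherin (Cdh1) was at 485 ± 159 and 574 ± 121 CPM, and the intestinal cadherin Cdh17 at 1278 ± 341 and 1679 ± 189 CPM. The actin linker vinculin (Vcl) had a log2 fold change of 0.54 (SE 0.362), and Nectin3, an adhesion molecule, was at -0.22 (SE 0.276).

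Among 8 desmosome genes, 4 were above 0 and 0 passed, with a median of -0.01, and 3 (Ppl, Pkp2 and Perp) had groups that did not overlap, all higher in DSS+CA, as had 3.24% of all tested genes. Periplakin (Ppl), which links desmosomes to keratin filaments, was at 7.23, 3.85, 2.78 and 7.02 CPM in DSS and 17.1, 9.45, 9.81 and 15.7 CPM in DSS+CA (log2 fold change 1.31, SE 0.389, edgeR, adjusted p = 0.259). Plakophilin 2 (Pkp2), a plaque protein, was at 41.1, 28.7, 42.9 and 40.6 CPM and 59.3, 62.7, 70.3 and 56.8 CPM (0.70, SE 0.257, edgeR, adjusted p = 0.440). All DSS+CA libraries lay above all DSS libraries in both genes. The related envoplakin gene Evpl was at -0.64 (SE 0.469), and the desmosomal cadherin gene Dsg2 at 307 ± 124 and 291 ± 61.9 CPM.

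Of 12 contractility genes, 11 were tested and 0 passed, with 5 above 0 and a median of -0.11, and Myh14 entered by 1 of its 2 overlapping records. The groups did not overlap, with DSS+CA higher, for 2 genes, as for 3.24% of all tested genes. These were Actg1, cytoplasmic gamma actin, at 265 ± 37.6 and 440 ± 129 CPM (log2 fold change 0.73, SE 0.308, edgeR, adjusted p = 0.570), and the GTPase gene Rhoa, at 247 ± 38.9 and 333 ± 8.04 CPM (0.43, SE 0.266, edgeR, adjusted p = 0.829). Mylk, the myosin light chain kinase that loosens junctions by contraction, was at 108 ± 51.3 and 80.2 ± 27.1 CPM and Actb at 1612 ± 416 and 2048 ± 294 CPM, and both overlapped.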

How the data were processed

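Each library came as 1 deposited table of 34745 genes, with raw counts in one column and FPKM in another, per the file headers. A TruSeq Stranded Total RNA kit was used, per the labels' protocols. The submitters' processing notes name HISAT2, StringTie, GRCm38 and mm10, and give no version. Which program counted, on which annotation and with which strand setting, is not given in the sources used here. For 17718 of 17718 genes with counts in 2 or more libraries, the FPKM the authors deposited equalled the count over a fixed gene length and the library total, within 1%.

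Genes with an FPKM of at least 1 in at least 4 libraries (9913) were tested in R 4.3.3 with edgeR 4.0.16 (quasi-likelihood, two-sided) with TMM scaling, the group as the only term, Benjamini-Hochberg adjustment over all tested genes and a threshold of 0.05. The SE is the absolute log2 fold change over the square root of the F statistic, and intervals of 95% use the degrees of freedom of the same test. Alternatives were RLE scaling, scaling to 7 epithelial genes, DESeq2 1.42.0, limma 3.58.1 on log2(FPKM + 1), other filters, the replicate number as a block, a covariate of library gene length and each library left out. The procedure was tested on simulated counts for the 9913 genes, where 4 unchanged genes were called. Some list genes were matched under older symbols. Gene models are those of GENCODE M21. The members, the lists and the 3 libraries left out together were chosen with earlier results of these data known. Junction genes were named as the 3 with the smallest p in a list plus the most abundant other one. The genes most like Tjp1 are not reported here. Figures were drawn with matplotlib 3.10.9.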

Additional observations from a re-analysis of the deposited data

Results flagged for a closer look

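Of the 62 groups of 4 values examined, 2 held a library far from the other 3, where chance flags about 1 in 20. Cldn15 was at 637 CPM in DSS 3 against 358 to 396 CPM in the other DSS libraries. Pkp2 was at 28.7 CPM in DSS 2 against 40.6 to 42.9 CPM in the others.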

How the results depend on the processing

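Cldn2 stayed above 0 in all 17 alternatives. It passed the threshold with DESeq2 (log2 fold change 1.03), with library gene length as a covariate (0.92) and without DSS 2, DSS 3 and DSS+CA 3 (1.04), where it was the 1 member past the threshold in each fit; with each library left out it ranged from 0.98 to 1.19 and 0 members passed. Signs turned for members that never passed: Cldn7, Cldn15 and Cldn23 were at 0.022, 0.025 and 0.028 in limma on log2(FPKM + 1), which moved the median of all genes to 0.17, and Cldn15 at 0.052 and Tjp1 at -0.45 without the 3 libraries. Tjp1 was at -0.086 with the covariate. With each library left out, Tjp1 ranged from -0.19 to 0.46, Cldn3 from -0.47 to 0.052, Cldn7 from -0.38 to 0.040 and Cldn15 from -0.30 to 0.031. The upper values of Cldn3, Cldn7 and Cldn15 are those without DSS 3, and Tjp1 was below 0 without DSS 2, without DSS 3 or without DSS+CA 1. The share of Cldn2 among claudins was 7.17% in DSS and 14.7% in DSS+CA by raw counts, and 8.72% in DSS+CA with M21 lengths, an alternative chosen after seeing the data.

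Over all genes, 4 were higher and 9 lower. The counts were 7 and 20 with RLE, 51 and 169 with DESeq2, 9 and 17 with limma, 18 and 61 with no filter, 294 and 324 with the covariate and 234 and 421 without the 3 libraries, and ranged from 0 to 19 and from 4 to 65 with each library left out. They were 19 and 65 without DSS+CA 3, 11 and 25 without DSS 3, 0 and 7 without DSS 1, DSS 2 or DSS 4, and 0 and 4 without DSS+CA 2 or DSS+CA 4. The causes were not tested. In the replicate block fit, 14 genes were higher and 51 lower, and Cldn2 was at 1.06 (edgeR, adjusted p = 0.143). Same-numbered libraries correlated at 0.780, -0.383, 0.106 and 0.226 in their deviations from the group means, so the numbers were not taken to pair them, and not every library correlated best with its own number.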
